A study of Mus musculus with 12 samples.

Results

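The genes described here are 35 genes of DNA replication and of the entry into S phase, picked by name. They comprise 10 genes that license replication origins, 3 that activate the replicative helicase, 12 that build DNA at the fork, 5 that supply nucleotides, 2 that deposit histones behind the fork and 3 that control the G1/S transition. All 35 were found among the 24421 gene names listed for every library, and all 35 passed the filter on low values in every comparison.

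RNA was sequenced from mouse bone marrow macrophages (BMMs) of the C57BL/6 strain, the osteoclast precursors obtained by culturing flushed marrow with M-CSF for 3 days. A loss-of-function experiment compared WT cells (Mir182+/+LysMcre(+)) with Mir182ΔM/ΔM cells (Mir182flox/floxLysMcre(+)), each without RANKL or with RANKL for 5 days. RANKL is the cytokine that drives macrophages to become osteoclasts. A gain-of-function experiment compared Control cells (LysMcre(+)) with Mir182mTg cells (LSL-Mir182LysMcre(+)), both without RANKL. Each of the 6 conditions had 2 libraries. All 12 libraries carry LysMcre, a Cre recombinase under the lysozyme M promoter, so Mir182 was deleted or switched on only in myeloid cells that had expressed Cre. The ages of the mice were not given in the sources used here. The labels do not say whether the 2 libraries of a condition came from separate mice, so the p-values measure the spread between these libraries.

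Before a cell copies its DNA, the origin recognition complex, *Cdc6* and *Cdt1* load the ring of 6 MCM proteins onto origins in G1, which is called licensing. At the start of S phase *Mcm10* and the GINS complex turn the loaded ring into a working helicase, primase and the DNA polymerases copy both strands around the sliding clamp *Pcna*, and ribonucleotide reductase, thymidylate synthase and thymidine kinase supply the deoxynucleotides. Most of these genes are targets of the E2F transcription factors, which become free to act when cyclin D and cyclin E kinases phosphorylate the retinoblastoma protein. BMMs proliferate in M-CSF, and osteoclasts form when such precursors leave the cycle and fuse.

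The promoters were described first, because many of these genes are known as E2F targets. A promoter window of 300 bases, 250 before and 50 after the annotated start (RefSeq, GRCm38.p6), was matched for 29 of the 35 genes, and *Mcm4*, *Gins1*, *Gins2*, *Pole*, *Prim2* and *Ccne2* were not matched. The E2F element was searched on both strands as TTTCCCGC or TTTCGCGC or TTTGCCGC or TTTGGCGC, and where a gene had several windows any of them counted. It was present in 11 of the 29 genes (37.9%), against 2.6% of the 27025 genes with a window and 4.80% of the 8993 of them that were tested here. The matches lay in 7 of 9 licensing genes and in 4 of 10 genes of fork synthesis, and in none of the 1 matched gene of helicase activation, the 5 of nucleotide supply, the 2 of histone deposition or the 2 matched genes of G1/S control. The CCAAT box (CCAAT, both strands) was in 16 of the 29 (55.2%) against 41.1% of all and 43.0% of those tested. The element of late cell cycle genes called CHR (TTTGAA, both strands) was in 2 of the 29 (6.90%) against 20.2% of all and 14.2% of those tested. It was in 14 of 21 matched genes of a mitosis list (66.7%). A match describes letters in a window and is not evidence of binding.

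The windows of the 2 licensing genes with the highest mean level are shown whole, with each E2F match in capitals, and stretches around matches of 5 other genes follow. Each is read 5′ to 3′ on the strand of its gene. In *Mcm5* and *Mcm6* matches on opposite strands overlapped by 4 bases, starting 153 and 149 bases before the start of *Mcm5* and 110 and 106 bases before that of *Mcm6*.
Mcm5 (chr8:75109259-75109558, plus strand): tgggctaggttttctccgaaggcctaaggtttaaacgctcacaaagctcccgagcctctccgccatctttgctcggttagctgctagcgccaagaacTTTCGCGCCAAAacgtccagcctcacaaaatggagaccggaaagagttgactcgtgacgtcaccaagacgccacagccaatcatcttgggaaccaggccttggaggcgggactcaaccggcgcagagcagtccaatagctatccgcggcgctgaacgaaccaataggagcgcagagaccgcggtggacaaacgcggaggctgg
Mcm6 (chr1:128359656-128359955, minus strand): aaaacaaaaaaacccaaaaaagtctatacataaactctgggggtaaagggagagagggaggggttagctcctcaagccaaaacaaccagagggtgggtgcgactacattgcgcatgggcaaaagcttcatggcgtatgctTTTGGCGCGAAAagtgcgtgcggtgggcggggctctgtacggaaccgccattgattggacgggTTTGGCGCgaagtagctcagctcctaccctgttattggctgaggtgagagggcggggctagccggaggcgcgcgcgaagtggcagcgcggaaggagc
Mcm3 (chr1:20820263-20820333, minus strand): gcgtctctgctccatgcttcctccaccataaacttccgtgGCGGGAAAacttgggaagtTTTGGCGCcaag
Mcm7 (chr5:138172001-138172088, minus strand): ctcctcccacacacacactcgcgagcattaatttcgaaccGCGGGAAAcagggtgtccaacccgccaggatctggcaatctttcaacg
Orc1 (chr4:108579387-108579474, plus strand): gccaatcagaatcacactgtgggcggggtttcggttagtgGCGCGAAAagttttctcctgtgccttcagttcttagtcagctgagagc
Cdc6 (chr11:98907973-98908060, plus strand): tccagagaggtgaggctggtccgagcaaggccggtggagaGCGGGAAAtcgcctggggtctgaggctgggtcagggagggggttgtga
Rfc3 (chr5:151651171-151651258, minus strand): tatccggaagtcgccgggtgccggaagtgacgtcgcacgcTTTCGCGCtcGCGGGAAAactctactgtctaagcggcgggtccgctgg

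The microRNA that the mouse lines alter was checked against the same genes. The mature miR-182-5p (chr6:30165962-30165986, minus strand, GRCm38.p6) is shown with its seed, bases 2 to 8, in capitals.
miR-182-5p: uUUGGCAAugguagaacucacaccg
The sequence that pairs with this seed, TTGCCAA, was present in the 3′ UTR of 1 of the 35 genes (2.86%), the thymidine kinase *Tk1*, against 1338 of the 10910 tested genes with an annotated 3′ UTR (12.3%). The 3′ UTRs of the 35 genes were shorter, with a median of 568 bases against 1176 bases over the tested genes.

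The libraries held 24951280 to 33050619 reads on genes, so 3 reads, the limit that a count of 0 allows, correspond to 0.0908 to 0.12 CPM (the reads on a gene scaled to a common library total). The lowest value of any of the 35 genes in any library was 4.33 CPM, for *Orc1*, so depth did not limit these genes. Mir182 itself was at 0 CPM in 9 of the 12 libraries, at 0.037 CPM in 1 Mir182ΔM/ΔM library without RANKL and at 2.39 and 4.40 CPM in the Mir182mTg libraries. The libraries were made for messenger RNA and not for small RNA, so this does not check the deletion. Of 8 macrophage markers, *Csf1r* was at 1444 CPM or more in every library, and the 8 summed to 5807 to 8783 CPM. RANKL lowered 7 of the 8 in WT cells (22.0% of all genes tested fell) and 4 in Mir182ΔM/ΔM cells (26.4% of all). In WT cells *Fcgr1* went from 116 and 123 CPM to 18.5 and 19.8 CPM with RANKL. The summed level of 10 osteoclast markers was 123 to 182 CPM without RANKL, 10643 and 10857 CPM in WT cells with RANKL, and 3253 and 3285 CPM in Mir182ΔM/ΔM cells with RANKL. Of the markers of other blood cells, 9 granulocyte genes summed to 92.9 to 104 CPM in the loss-of-function cells without RANKL, 24.9 and 28.6 CPM in WT cells with RANKL, 12.6 and 14.2 CPM in Mir182ΔM/ΔM cells with RANKL, 50.1 and 53.2 CPM in Control and 92.8 and 101 CPM in Mir182mTg cells. Markers of B cells, T and NK cells and mast cells summed to at most 3.71, 0.51 and 1.54 CPM in any library. Of 8 erythroid markers, the globin genes *Hbb-bt* and *Hba-a1* were at 0, *Epor* at 0 to 3.06 CPM and *Tfrc* at 284 to 776 CPM. Stromal markers summed to 1.79 to 7.18 CPM in replicate 1 and 17.9 to 23.2 CPM in replicate 2 without RANKL, and to 17.1 and 19.6 CPM and 37.7 and 38.8 CPM with RANKL.

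Some libraries stood apart in ways their labels do not give. Replicates 1 and 2 are labelled as poly-A and total RNA respectively, although the protocol given for every library names poly-A selection, and the ribosomal precursor *Rn45s* was at 742 to 1176 CPM in every replicate 1 and at 9778 to 21273 CPM in every replicate 2. Each condition holds 1 library of each kind. Separately, 3 genes chosen after their values were seen split the WT cells. *Lyz2*, the gene into which LysMcre is inserted, was at 44.0 and 39.8 CPM in WT cells without RANKL, at 22.5 to 34.6 CPM in all 4 Mir182ΔM/ΔM libraries, at 4117 and 4288 CPM in WT cells with RANKL and at 5783 to 7062 CPM in the Control and Mir182mTg libraries. *Ifi202b* followed the opposite pattern, at 82.1 to 152 CPM in WT cells without RANKL and in Mir182ΔM/ΔM cells and at 0 to 1.12 CPM in the other 6 libraries. *Ifi44l* was at 19.8 and 25 CPM in WT cells without RANKL and at 0.433 CPM or less in the other 10 libraries. In these genes the WT libraries with RANKL therefore stood with the gain-of-function libraries and not with the WT libraries without RANKL. In WT cells the response to RANKL and this difference between libraries cannot be told apart, and both WT groups enter the comparisons of genotype.

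The summed level of the 35 genes followed 1 order in the loss-of-function experiment. It was 1829 and 1880 CPM in WT cells without RANKL, 2510 and 2605 CPM in Mir182ΔM/ΔM cells without RANKL, 2854 and 2963 CPM in WT cells with RANKL and 3686 and 3852 CPM in Mir182ΔM/ΔM cells with RANKL. Replicates of neighbouring groups did not overlap. Gene by gene, both WT libraries without RANKL were below the other 6 for 30 of the 35 genes (14% of the 11691 genes tested), and both Mir182ΔM/ΔM libraries with RANKL were above the other 6 for 29 (14.3% of all). Both statements held for 27 of 35 genes (6.08% of all), the exceptions being *Cdt1*, *Gins2*, *Pcna*, *Rfc3*, *Rfc4*, *Tk1*, *Chaf1b* and *E2f1*. The middle step of the order of the sum did not hold for every gene. *Orc1* was at 9.25 and 10.2 CPM in Mir182ΔM/ΔM cells without RANKL and at 7.42 and 7.56 CPM in WT cells with RANKL. *Gins1* and *Pola1*, also among the 27, and *Gins2*, *Pcna* and *E2f1* were reversed in the same way. An exact permutation test of 2 libraries against 2 cannot give a two-sided p below 0.333, so the sums carry no test. In these bulk libraries, fewer cycling cells and less of each transcript per cell cannot be told apart.

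**Figure D1:**
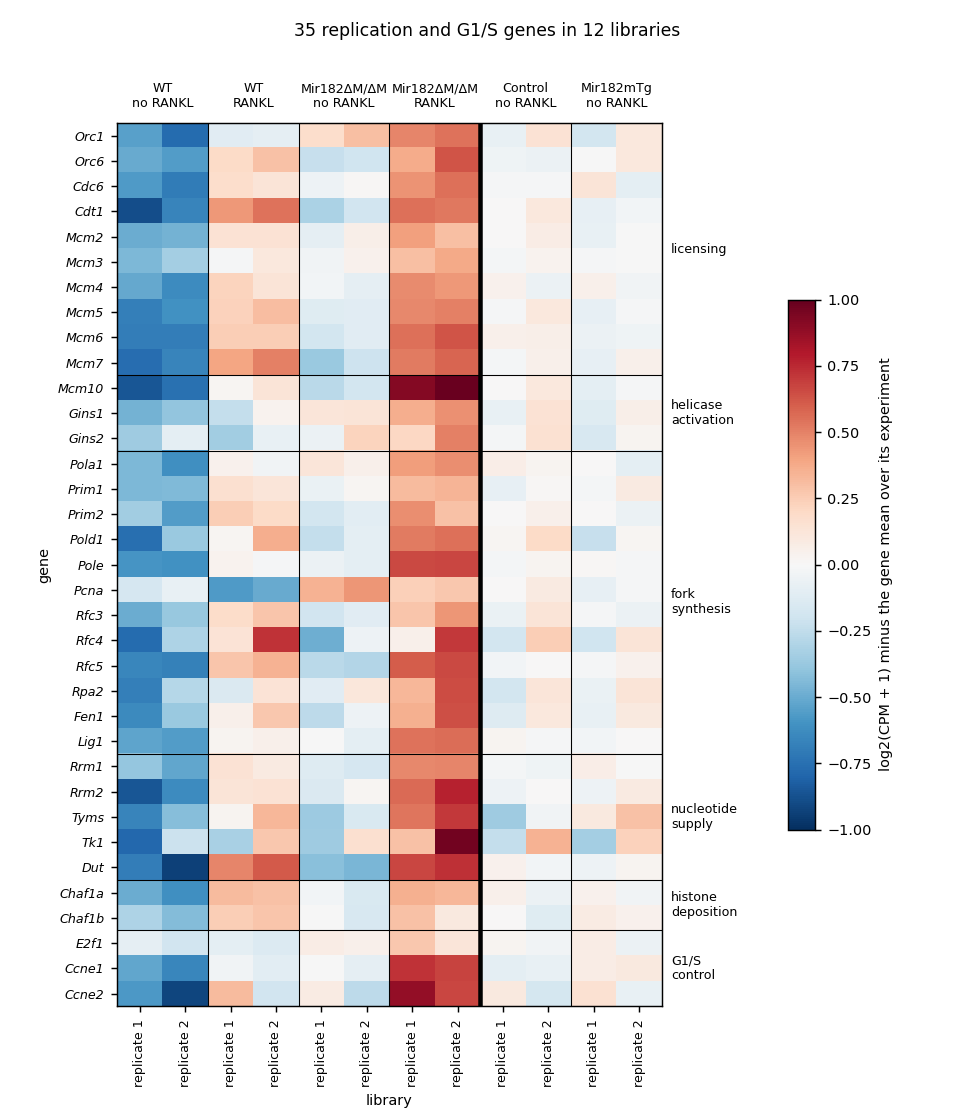
Level of each of the 35 genes (rows, grouped by role) in each of the 12 libraries (columns, grouped by condition), as log2(CPM + 1) minus the mean of that gene over its own experiment, so blue is below and red above that mean. The thick line separates the loss-of-function from the gain-of-function libraries, which are centred apart; WT libraries without RANKL are the lowest for 30 genes and Mir182ΔM/ΔM libraries with RANKL the highest for 29, while the gain-of-function columns stay close to white.

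Per length, in RPKM (the CPM divided by transcript length, given for replicate 1 of each condition), the clamp gene *Pcna* was the most abundant of the 35 in all 6 conditions, at 111 to 277 RPKM, and *Orc1*, the largest subunit of the origin recognition complex, the least, at 1.75 to 3.91 RPKM. Within the MCM ring, whose 6 subunits are built in equal numbers, *Mcm2* was the lowest (21.3 to 49.8 RPKM) and *Mcm6* the highest (57.2 to 136 RPKM) in every condition, and the highest exceeded the lowest 2.42 to 3.39 times.

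Among the licensing genes, *Mcm6* and *Mcm5*, subunits of the MCM helicase ring, had the highest mean level in CPM. *Mcm6* was at 166 and 166 CPM in WT cells without RANKL, 318 and 319.6 with RANKL, 237 and 249 in Mir182ΔM/ΔM cells without RANKL and 394 and 417 with RANKL. The 4 groups did not overlap, and the Control (359 and 359.8 CPM) and Mir182mTg libraries (332 and 336 CPM) lay between the 2 groups with RANKL. *Mcm5* was at 107 and 114 CPM, 203 and 214 CPM, 159 and 159.6 CPM and 242 and 245 CPM in the same 4 groups, with 274 and 297 CPM in Control and 261 and 274 CPM in Mir182mTg cells. Its 4 loss-of-function groups kept the order of *Mcm6*. *Mcm10*, which joins the ring to the firing origin, was at 32.3 and 34.8 CPM in WT cells without RANKL, 59.9 and 64.7 with RANKL, 48.9 and 51.8 in Mir182ΔM/ΔM cells without RANKL and 112 and 118 with RANKL, and at 68.6 to 79.0 CPM in the gain-of-function libraries. The Mir182ΔM/ΔM libraries with RANKL were above all 10 other libraries. *Gins2*, a subunit of the GINS complex, was at 22.9 and 27.5 CPM in WT cells without RANKL and at 22.9 and 28.0 CPM with RANKL. These groups overlapped fully, whereas the Mir182ΔM/ΔM libraries, at 28.2 and 34.5 CPM without and 34.2 and 42.1 CPM with RANKL, were above both WT groups. In Control and Mir182mTg cells *Gins2* was at 46.2 and 52.4 CPM and at 41.9 and 47.9 CPM.

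At the fork, *Pcna* departed from the other genes. It was at 184 and 197 CPM in WT cells without RANKL and at 139.8 and 146 CPM with RANKL, and at 264 and 282 CPM in Mir182ΔM/ΔM cells without RANKL and 244 and 250.2 CPM with RANKL. It was thus lower with RANKL in both genotypes without overlap, and higher in Mir182ΔM/ΔM than in WT cells in both states. Control and Mir182mTg cells held 349 and 372 CPM and 329.7 and 346 CPM. *Lig1*, the ligase that seals Okazaki fragments, was at 91.3 and 89.3 CPM in WT cells without RANKL, 134 and 137 with RANKL, 131 and 123 in Mir182ΔM/ΔM cells without RANKL and 193 and 195 with RANKL. Its WT libraries with RANKL were only just above the Mir182ΔM/ΔM libraries without it, and the gain-of-function libraries held 193 to 200.3 CPM.

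Of the nucleotide supply, both subunits of ribonucleotide reductase followed the order of the summed level. *Rrm1*, the large subunit, was at 205 and 187 CPM, 295 and 284 CPM, 245 and 238 CPM and 373 and 376 CPM in WT cells without and with RANKL and Mir182ΔM/ΔM cells without and with RANKL. *Rrm2*, the small subunit that is made in S phase, was at 50.8 and 59.4 CPM, 101 and 102 CPM, 83.4 and 94.0 CPM and 138 and 158 CPM in these groups. No group overlapped another for either gene. In Control cells *Rrm1* was at 372 and 367 CPM and *Rrm2* at 169 and 175 CPM, and in Mir182mTg cells at 394 and 376 CPM and at 169 and 186 CPM.

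The histone chaperone CAF-1, which places new nucleosomes behind the fork, did not follow the order of the summed level at its top. *Chaf1a*, its large subunit, was at 52.1 and 48 CPM in WT cells without RANKL, 72.3 and 66.6 in Mir182ΔM/ΔM cells without RANKL, 92.1 and 90.7 in WT cells with RANKL and 94.8 and 93.1 in Mir182ΔM/ΔM cells with RANKL. *Chaf1b* was at 27.3 and 25 CPM, 34.0 and 30.5 CPM, 40.7 and 41.5 CPM and 41.9 and 36.6 CPM in that order. The genotypes were apart without RANKL, close with RANKL for *Chaf1a* and overlapping with RANKL for *Chaf1b*. Control cells held 103 and 94.5 CPM of *Chaf1a* and 51.8 and 47.3 CPM of *Chaf1b*, and Mir182mTg cells 102 and 96.5 CPM and 54.6 and 53.1 CPM.

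The regulators of the G1/S transition fell into a pair of patterns. *E2f1*, the factor that activates many of the other genes, was at 58.5 and 54.4 CPM in WT cells without RANKL, 58.2 and 56.4 with RANKL, 65.7 and 64.3 in Mir182ΔM/ΔM cells without RANKL and 75.1 and 67.8 with RANKL. Its 2 WT groups overlapped and lay below both Mir182ΔM/ΔM groups. *Ccne1*, a cyclin E that activates the kinase of S-phase entry, was at 13.5 and 12.2 CPM, 19.3 and 18.4 CPM, 19.8 and 18.6 CPM and 33.4 and 32.3 CPM in those groups. *Ccne2*, the other cyclin E, was at 24.8 and 19.4 CPM, 46.6 and 32.6 CPM, 39.7 and 31.0 CPM and 69.5 and 59.8 CPM, with replicate 1 above replicate 2 each time. For both cyclins, WT cells with RANKL overlapped Mir182ΔM/ΔM cells without it, and Mir182ΔM/ΔM cells with RANKL were the highest of the 4 groups. The gain-of-function libraries held 72.9 to 80 CPM of *E2f1*, 39.0 to 44.9 CPM of *Ccne1* and 75.3 to 95 CPM of *Ccne2*.

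**Figure D2:**
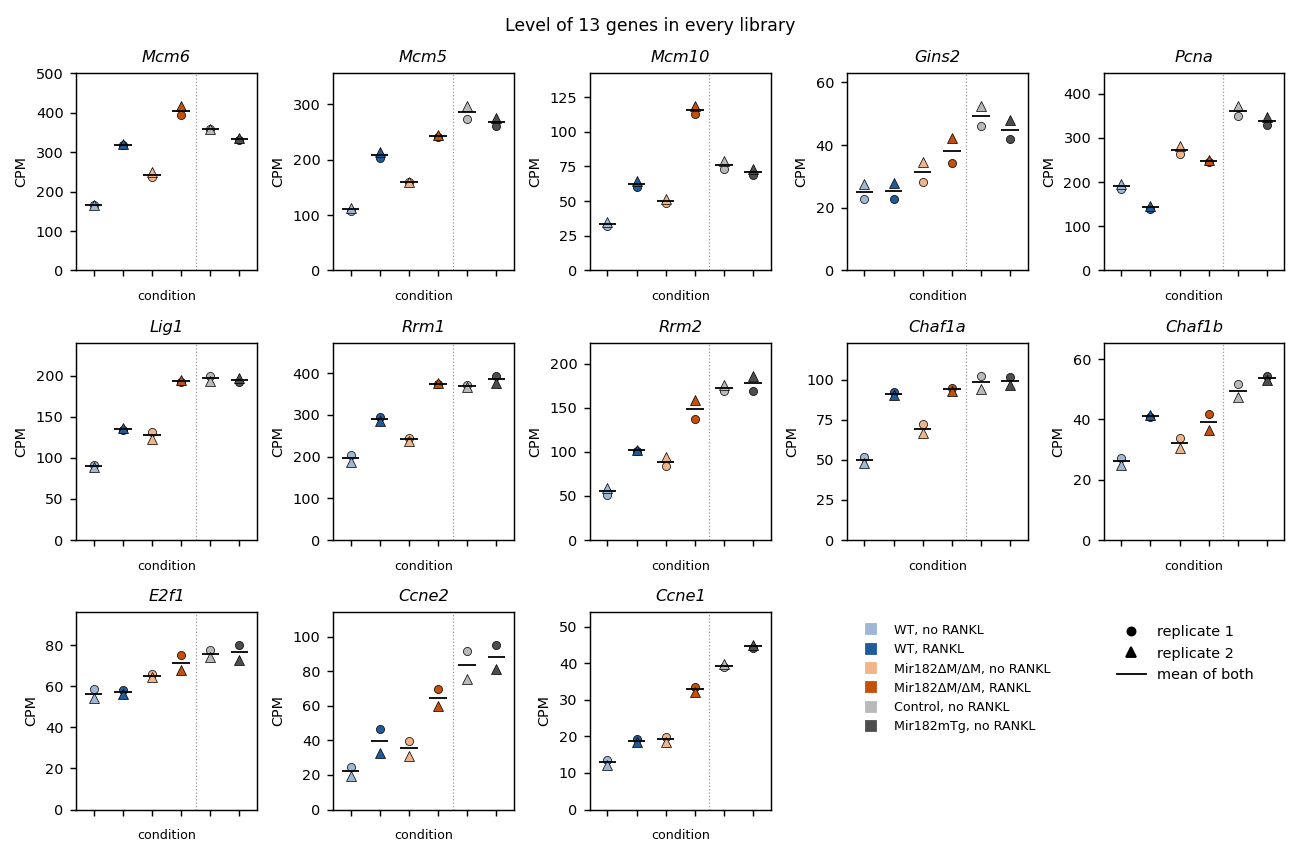
Level in CPM (vertical axes, from 0) of 13 genes, the 2 most abundant of each role and all 3 of G1/S control, in the 6 conditions, with circles for replicate 1, triangles for replicate 2 and a bar at the mean of both. The dotted line separates the 2 experiments. *Pcna* is the gene whose WT libraries fall with RANKL, to 139.8 and 146 CPM, and *Mcm6* and *Mcm10* are the genes whose Mir182ΔM/ΔM libraries with RANKL, at 394 and 417 CPM and at 112 and 118 CPM, stand above the other 10.

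The first comparison asked how RANKL changed these genes in WT cells. RANKL raised 30 of the 35 genes (40.6% of all genes tested rose) and lowered 1 (22.0% of all fell), with a median log2 fold change of 0.67 against 0.19 over all genes. All 10 licensing genes rose, from *Mcm3* (0.44, SE 0.073) to *Cdt1*, the loader of the MCM ring (1.26, SE 0.096, adjusted p = 2.83e-05). The largest increase was that of *Dut*, the dUTPase that keeps uracil out of DNA, from 16.9 and 14.1 CPM to 39.5 and 43.3 CPM (log2 fold change 1.36, SE 0.10, adjusted p = 2.59e-05). *Mcm6* rose by 0.94 on the log2 scale (SE 0.059) and *Mcm5* by 0.91 (SE 0.061). *Pcna* was the 1 gene that fell (log2 fold change -0.41, SE 0.066, adjusted p = 0.00125).

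By role, 2 of 3 helicase activation genes, 10 of 12 genes of fork synthesis, 4 of 5 of nucleotide supply, both of histone deposition and 2 of 3 of G1/S control rose. The 4 genes past the test in neither direction were *Gins2* (0.01, 95% interval -0.37 to 0.40), *E2f1* (0.02, -0.16 to 0.20), *Rpa2*, a subunit of the single-strand binding protein (0.48, adjusted p = 0.0514), and *Tk1* (0.47, adjusted p = 0.236). *Tk1* was at 34.9 and 52.4 CPM without and 48.3 and 73.6 CPM with RANKL, so its replicates differed by more than its groups, with replicate 2 higher each time. With the replicate number as a block *Rpa2* and *Tk1* also rose (adjusted p = 1.25e-07 and 6.71e-09), making 32. With this block 6177 of the 11691 genes tested rose.

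Scaling that equalises most genes lowered these values. The median over all genes was 0.19 with CPM as deposited and -0.01 after division by TMM factors, which lowered the median of the 35 genes to 0.46 and the count that rose to 28. *Gins2* and *E2f1* changed sign with it, to -0.19 and -0.18. EdgeR, which also uses TMM factors, called 28 of the 35 genes higher, against 3536 of 12579 genes.

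The same question was asked in Mir182ΔM/ΔM cells, in which neither WT group takes part. RANKL raised 28 of the 35 genes (30.4% of all genes tested rose) and lowered none by limma on CPM as deposited, edgeR or DESeq2 (26.4% of all fell), with a median of 0.61 against 0.05 over all genes. *Mcm10* rose most, by 1.18 on the log2 scale (SE 0.077, adjusted p = 1.64e-05), followed by *Dut* (1.14, SE 0.10). By role, 9 of 10 licensing genes, 1 of 3 of helicase activation, 10 of 12 of fork synthesis, 4 of 5 of nucleotide supply, both of histone deposition and 2 of 3 of G1/S control rose. The 7 genes that did not pass the test were *Orc1* (0.28), *Gins1* (0.29), *Gins2* (0.27), *Rfc4*, a subunit of the clamp loader (0.65), *Tk1* (0.73), *E2f1* (0.13) and *Pcna* (-0.14, 95% interval -0.30 to 0.01). None was lower at an unadjusted p under 0.05 by limma on CPM as deposited or by DESeq2, and *Pcna* was by edgeR. After division by TMM factors limma called *Pcna* lower and 26 genes higher. EdgeR, which also uses TMM factors, called 26 of the 35 genes higher, against 3439 of 12579 genes. With the replicate block *Pcna* passed as lower (adjusted p = 0.000383) and the other 6 as higher, while 4239 of the 11691 genes tested fell and 4997 rose. With the WT libraries with RANKL left out of the fit 27 genes rose, and with the WT libraries without RANKL left out 28, alternatives chosen after seeing the data. Of the 10 osteoclast markers 9 rose (10 with the replicate block) and of the 9 granulocyte markers 9 fell in the same comparison, and in WT cells 10 rose and 9 fell. Their part in these results was not tested.

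**Figure D3:**
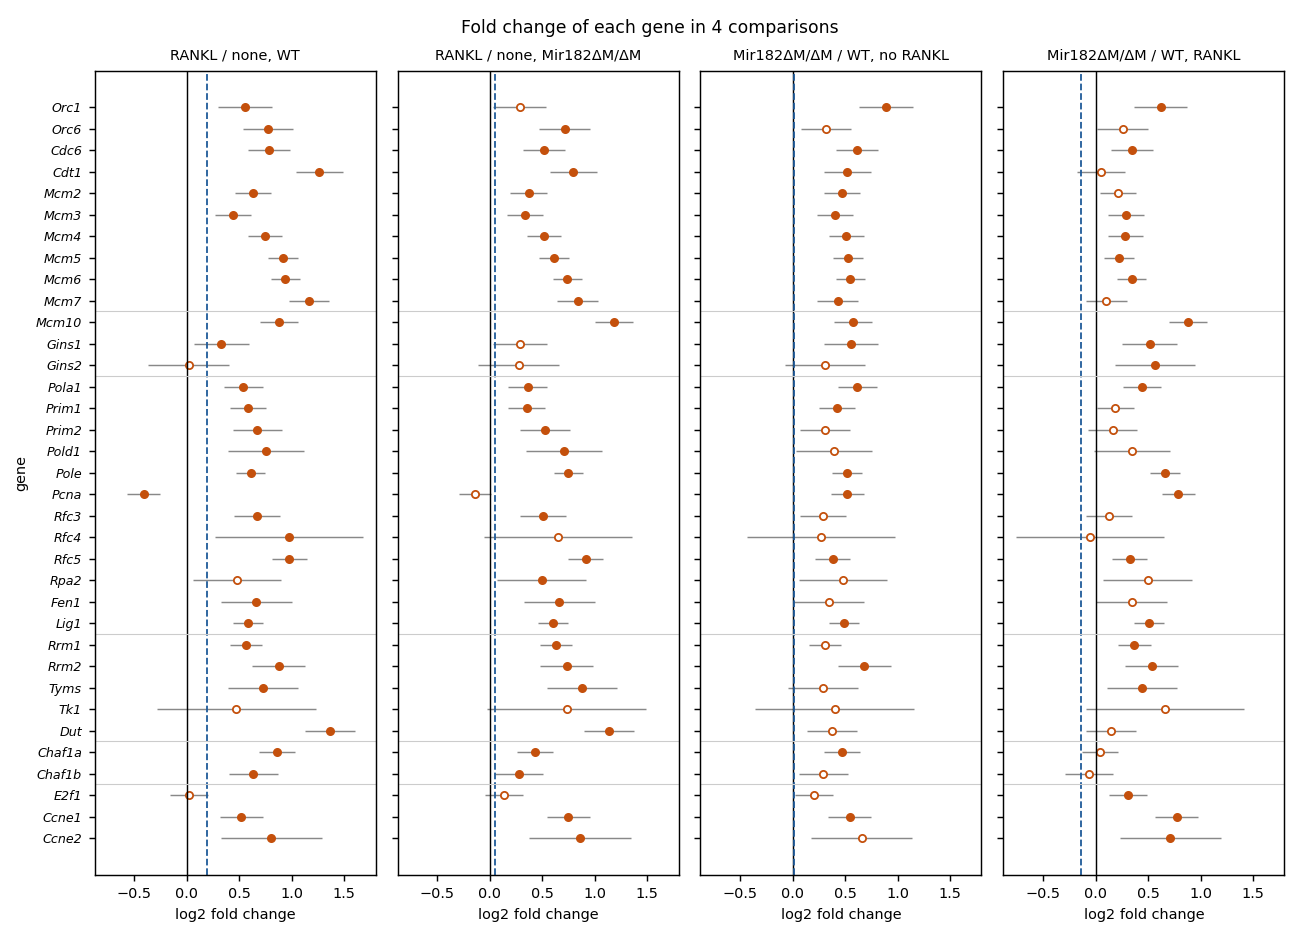
Log2 fold change of each of the 35 genes (rows, in the order of their roles) in 4 comparisons (panels), with 95% intervals as lines. Filled points passed an adjusted p of 0.05 and open points did not, the black line marks 0 and the dashed line the median of all genes tested, which is 0.19, 0.05, 0.01 and -0.14 from left to right. In the third panel all 35 points lie above 0, between 0.20 and 0.89, and in the first *Pcna* is the only filled point below 0.

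The next comparison asked how these genes differed between the genotypes without RANKL. It rests on the WT libraries without RANKL, which stood apart in *Ifi44l* (19.8 and 25 CPM), and genotype and this difference cannot be told apart in it. The same WT libraries were also below Control cells for all 35 genes, which held a median of 2.14 times their level. The ratio over all genes is not given here, so this does not set the 35 genes apart. All 35 were higher in Mir182ΔM/ΔM than in WT cells, by a log2 fold change of 0.20 (*E2f1*) to 0.89 (*Orc1*), with a median of 0.46 against 0.01 over all genes. The test called 20 of them higher (2.71% of all genes tested) and none lower, with 0 at an unadjusted p under 0.05 and 0 by edgeR or DESeq2 (1.10% of all). *Orc1* went from 5.26 and 4.33 CPM in WT to 9.25 and 10.2 CPM in Mir182ΔM/ΔM cells (SE 0.11, adjusted p = 0.00742). The 20 included 9 of 10 licensing genes, among them *Mcm6* (0.55, SE 0.059, adjusted p = 0.0045), *Mcm5* (0.52) and the origin loader *Cdc6* (0.62). They also included *Mcm10* and *Gins1*, 6 of 12 genes of fork synthesis such as the polymerase subunits *Pola1* (0.62) and *Pole* (0.51) and the clamp *Pcna* (0.52), the reductase subunit *Rrm2* (0.68), *Chaf1a* (0.46) and *Ccne1* (0.54).

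The 15 that did not pass had log2 fold changes of 0.20 to 0.65, the highest being that of *Ccne2* (adjusted p = 0.166). Both Mir182ΔM/ΔM libraries were above both WT libraries for 33 of the 35 genes (23.4% of all genes tested), the exceptions being *Rfc4* and *Tk1*. Within each replicate number all 35 were higher (40.2% of all genes tested were higher in both). The medians were 0.47 in replicate 1 and 0.46 in replicate 2, against 0.008 and 0.016 over all genes. With the replicate block all 35 passed (18.6% of all genes). None of the 10 osteoclast and 9 granulocyte markers was called in this comparison by limma, with 2 and 5 at an unadjusted p under 0.05. In the blocked fit 2 osteoclast markers were called higher, and 3 granulocyte markers higher and 1 lower, and their part in the result was not tested. The SD of the 35 log2 fold changes was 0.14 against 0.24 over all genes. It was below that of all genes in every other comparison too, so this is not particular to the genotypes without RANKL. With RANKL against without, the SDs were 0.34 against 0.96 in WT and 0.27 against 0.87 in Mir182ΔM/ΔM cells. Between genotypes with RANKL they were 0.24 against 0.67.

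The count of 20 did not hold when libraries were left out. Without 1 library it was 6 (WT without RANKL replicate 1), 7 (the same, replicate 2), 2 (Mir182ΔM/ΔM without RANKL replicate 1), 1 (the same, replicate 2), 13 (Mir182ΔM/ΔM with RANKL, either replicate) and 15 (WT with RANKL, either replicate or both), and with only the 4 libraries compared limma called 0, with 28 at an unadjusted p under 0.05 and all 35 positive. DESeq2 called 21 and edgeR 19 on the recovered reads of all 8 libraries.

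The same comparison was made with RANKL. Of the 35 genes 33 had a positive log2 fold change, with a median of 0.35 against -0.14 over all genes. The test called 20 higher (14.3% of all genes tested) and none lower, with 0 at an unadjusted p under 0.05 and 0 by edgeR or DESeq2 (30.9% of all). The largest increase was in *Mcm10*, from 59.9 and 64.7 CPM to 112 and 118 CPM (0.88, SE 0.077, adjusted p = 0.000126), followed by *Pcna* (0.79, SE 0.066, adjusted p = 0.000101), *Ccne1* (0.77, SE 0.086) and *Ccne2* (0.71, SE 0.20). All 3 genes of helicase activation and all 3 of G1/S control rose, *E2f1* by 0.31 (SE 0.077, adjusted p = 0.0147). So did 6 of 10 licensing genes, 5 of 12 of fork synthesis and 3 of 5 of nucleotide supply. Neither histone deposition gene passed (*Chaf1a* 0.04, 95% interval -0.13 to 0.21, and *Chaf1b* -0.07, -0.30 to 0.17). The other gene with a negative value was *Rfc4* (-0.05, -0.76 to 0.65), at 16.3 and 24.9 CPM in WT and 15.2 and 24.7 CPM in Mir182ΔM/ΔM cells.

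Both Mir182ΔM/ΔM libraries were above both WT libraries for 31 genes (23.0% of all genes tested), the exceptions being *Cdt1*, *Rfc3*, *Rfc4* and *Chaf1b*. With the replicate block 29 passed (23.4% of all). After division by TMM factors all 35 were positive and 27 passed, with a median of 0.49 while that of all genes moved from -0.14 to -0.01. EdgeR, which also uses TMM factors, called 28 of the 35 genes higher, against 2481 of 12579 genes. Without replicate 2 of Mir182ΔM/ΔM with RANKL, 11 passed. With both WT libraries without RANKL left out of the fit, 21 passed. The comparison rests on the WT libraries with RANKL, which stood apart in *Lyz2* and *Ifi202b*, and genotype and this difference cannot be told apart in it. In the same comparison 8 of the 10 osteoclast markers were called lower and 1 higher, and 7 of the 9 granulocyte markers were called lower (8 with the replicate block). Their part in the result was not tested.

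Whether the response to RANKL differed between the genotypes was tested by the interaction term, the response in Mir182ΔM/ΔM minus that in WT cells. It passed for 3 of the 35 genes, all with a smaller response in Mir182ΔM/ΔM cells (17.1% of all genes tested), and for none in the other direction (7.44% of all), in which 2 genes, *Mcm10* and *Pcna*, had an unadjusted p under 0.05 by limma and where edgeR called 3 genes and DESeq2 called 2. They were *Cdt1* (1.26 in WT and 0.79 in Mir182ΔM/ΔM cells, difference -0.47, SE 0.14, adjusted p = 0.0438), *Chaf1a* (0.86 and 0.43, difference -0.43, SE 0.10, adjusted p = 0.0229) and *Mcm5* (0.91 and 0.61, difference -0.30, SE 0.086, adjusted p = 0.0408). The median of the 35 terms was -0.11 against -0.15 over all genes. All 10 licensing genes (8 after TMM scaling, without *Orc6* and *Mcm3*) and both histone deposition genes had a negative term, all 3 G1/S regulators a positive one, and the highest was that of *Mcm10* (0.31, adjusted p = 0.0856). With any 1 of the 8 libraries left out, 0 or 1 gene was called lower. The term takes in the response of WT cells, so genotype cannot be told apart in it from the difference between the WT libraries in *Lyz2*, *Ifi202b* and *Ifi44l*.

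The direction of these terms depended on the scaling. After division by TMM factors the median of all genes moved from -0.15 to 0.00, 20 of the 35 terms were positive, and the genes past the test were *Mcm10* (0.47), *Pcna* (0.43) and *Pole* (0.30), all with a larger response in Mir182ΔM/ΔM cells, with none in the other direction (10.5% and 11.0% of all genes). The terms of *Cdt1* (-0.31), *Chaf1a* (-0.26) and *Mcm5* (-0.14) stayed negative and no longer passed. With the replicate block on CPM as deposited, 6 terms passed as higher and 13 as lower (16.1% and 42.8% of all). With both TMM scaling and the block, 12 passed as higher and 4 as lower, the latter being *Cdt1*, *Chaf1a*, *Mcm5* and *Mcm7*.

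**Figure D4:**
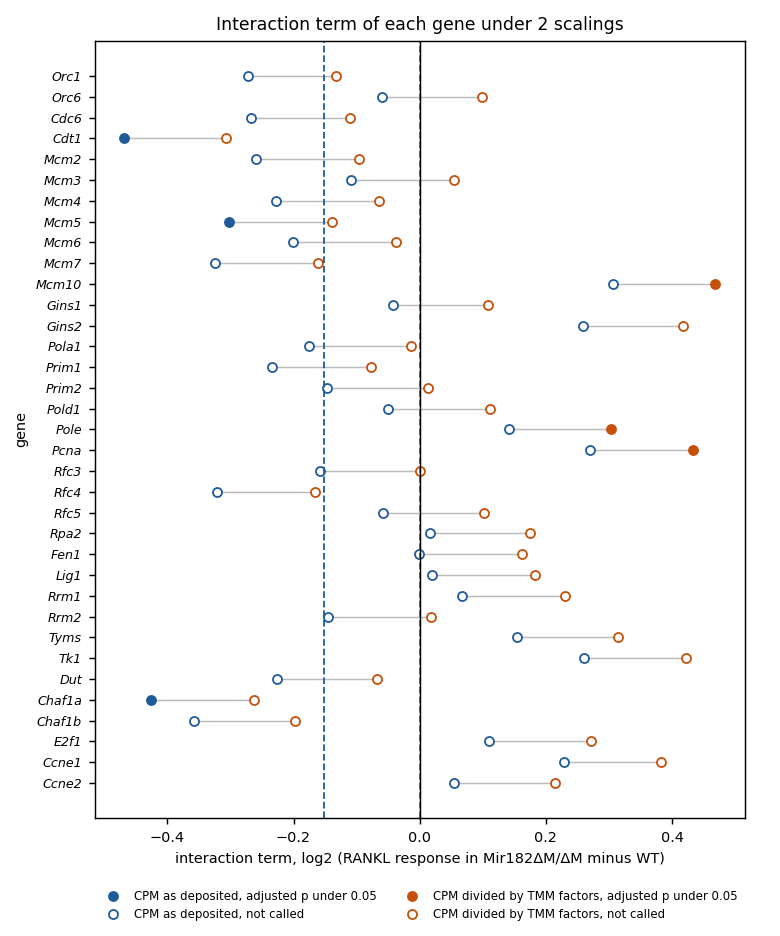
Interaction term of each of the 35 genes (rows) on the log2 scale, with CPM as deposited in blue and after division by TMM factors in orange. Filled points passed an adjusted p of 0.05 and dashed lines mark the median of all genes under each scaling, -0.15 and 0.00. The points of each gene are about as far apart as the 2 dashed lines, and the filled points are *Cdt1*, *Mcm5* and *Chaf1a* on the left in blue and *Mcm10*, *Pole* and *Pcna* on the right in orange.

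Raising Mir182 in Mir182mTg cells gave no call among the 35 genes in either direction with edgeR, with DESeq2 or with limma (0.0993% of all genes tested were called higher and 0.157% lower by edgeR). The edgeR test also did not call Mir182 itself (log2 fold change 9.64, unadjusted p under 0.05), which passed with the replicate block. The absence of calls therefore does not show that the 35 genes were unchanged. Their log2 fold changes ran from -0.22 (*Pold1*, the catalytic subunit of DNA polymerase delta, 95% interval -0.52 to 0.09) to 0.38 (*Tyms*, thymidylate synthase, 0.03 to 0.73), with a median of -0.03. *Tyms* was at 44.3 and 55.3 CPM in Control and 60.8 and 69.8 CPM in Mir182mTg cells, without overlap, and it was the 1 gene with an unadjusted p under 0.05 (edgeR, adjusted p = 0.649). *Mcm6* differed by -0.12 (95% interval -0.28 to 0.05), *E2f1* by 0.00 (-0.21 to 0.22) and *Ccne1* by 0.17 (-0.03 to 0.37). With the replicate block 2 genes passed as higher, *Tyms* and *Ccne1*, and 7 as lower, *Cdt1*, *Mcm5*, *Mcm6*, *Gins2*, *Pold1*, *Pcna* and *Tk1* (6.94% and 8.15% of all genes). Of the 9 granulocyte markers edgeR called none, with 8 at an unadjusted p under 0.05, and with the block 8 were higher in Mir182mTg cells. Of the 7 osteoclast markers tested there 4 were higher with the block. Their part in the blocked calls was not tested.

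The remaining replication genes, a list of 47 with among others the other origin recognition, polymerase and clamp loader subunits, were read beside the 35. With RANKL 32 rose and 2 fell in WT cells (40.6% and 22.0% of all genes tested). In Mir182ΔM/ΔM cells 31 rose and 1 fell (30.4% and 26.4% of all). In WT cells the ends of the called range were the deaminase *Dctd* (1.73) and the nuclease and helicase *Dna2* (1.37) above, and the nucleoside kinases *Dck* (-0.66) and *Tk2* (-0.37) below. Against WT, 10 were higher in Mir182ΔM/ΔM cells without RANKL (2.71% of all), with *Dck* (0.73) and the fork protector *Timeless* (0.70) at the top. With RANKL 16 were higher (14.3% of all), *Dna2* was the 1 gene called lower (-0.50, 30.9% of all were lower) and *Dck* the highest (2.27). The interaction term of *Dck* was 1.54 (adjusted p = 7.31e-05) and that of *Dna2* -0.86 (adjusted p = 0.00271), both larger in size than any of the 35 genes. When blocked by replicate number 40 rose and 3 fell with RANKL in WT cells and 39 and 2 in Mir182ΔM/ΔM cells. Of all 11691 genes tested, 6177 rose and 3387 fell in WT cells with the block, and 4997 and 4239 in Mir182ΔM/ΔM cells. Against WT, 33 of the 47 were higher and 1 lower without RANKL (2170 and 1481 of all genes). With RANKL 31 were higher and 7 lower (2740 and 5815 of all). EdgeR called none of the 47 in Mir182mTg cells, where 1 had an unadjusted p under 0.05, and with the block called *Pold3* higher (0.18) and *Dbf4* (-0.14), *Gmnn* (-0.12) and *Dck* (-0.15) lower. Of all genes tested in Mir182mTg cells, 6.94% were called higher and 8.15% lower with the block.

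A list of 25 mitosis genes showed the later part of the cycle. RANKL raised 16 in WT cells (40.6% of all genes tested rose), with the checkpoint kinase gene *Bub1b* (1.33) and *Cdc20* (0.99) at the top. In Mir182ΔM/ΔM cells it raised 21 (30.4% of all), with *Kif20a* (1.03) and *Aurka* (0.94) at the top. It lowered none in either (22.0% and 26.4% of all fell). Without RANKL 2 of the 25 were called higher in Mir182ΔM/ΔM cells (2.71% of all), *Bub1* (0.53) and the topoisomerase *Top2a* (0.44). Of the 25, 16 had an unadjusted p under 0.05 and the median was 0.26, and with the replicate block 23 were called higher (18.6% of all). With RANKL 19 were higher (14.3% of all), led by *Ndc80* (0.66) and *Nusap1* (0.62), and 1 lower (30.9% of all), *Bub1b* (-0.32), with a median of 0.46. With the block 22 were higher and 2 lower (2740 and 5815 of all 11691 genes). With the block 22 rose with RANKL in WT cells and 25 in Mir182ΔM/ΔM cells (6177 and 4997 of all 11691 genes). In Mir182mTg cells edgeR called none, with 1 at an unadjusted p under 0.05, and with the block called 4 lower (8.15% of all genes tested). The median of the mitosis genes was thus below that of the 35 genes without RANKL (0.26 against 0.46) and above it with RANKL (0.46 against 0.35), and this difference between lists was not tested.

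**Figure D5:**
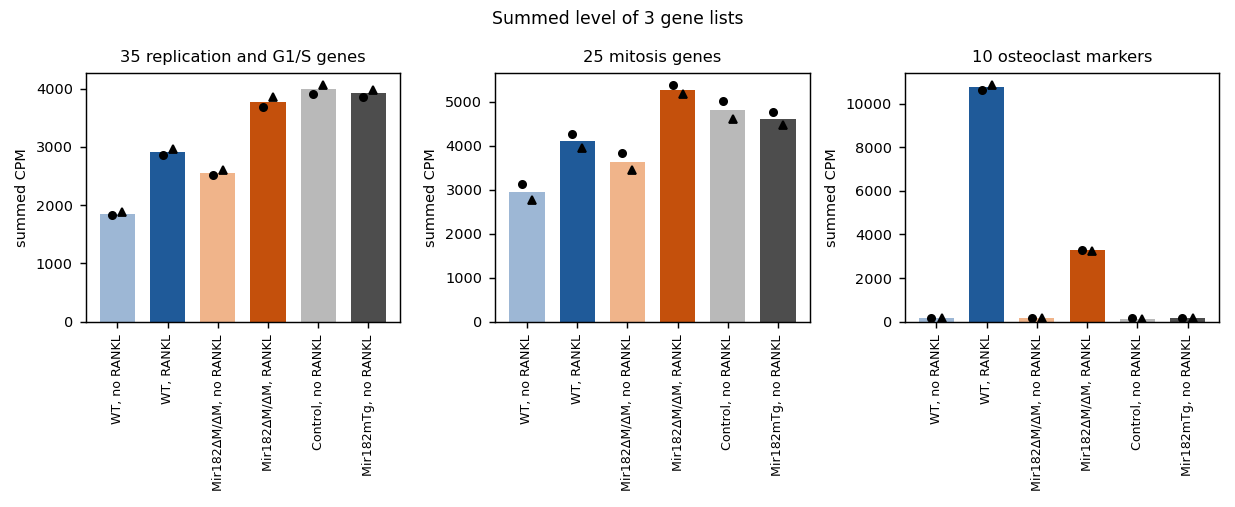
Summed level in CPM (vertical axes, from 0) of the 35 genes, of 25 mitosis genes and of 10 osteoclast markers in the 6 conditions, as bars at the mean of 2 libraries with a circle for replicate 1 and a triangle for replicate 2. The first sum climbs from 1829 and 1880 CPM in WT cells without RANKL to 3686 and 3852 CPM in Mir182ΔM/ΔM cells with RANKL, while the osteoclast sum is highest in WT cells with RANKL, at 10643 and 10857 CPM.

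The regulators upstream were called in both directions. Of all genes tested, RANKL raised 40.6% and lowered 22.0% in WT cells, and raised 30.4% and lowered 26.4% in Mir182ΔM/ΔM cells. Against WT, 2.71% of all were higher and 1.10% lower in Mir182ΔM/ΔM cells without RANKL, and 14.3% and 30.9% with RANKL. Blocked counts of all genes are those given beside the 47 genes. A count near these shares does not set a list apart. Of 9 tested genes of the D cyclins, the G1 kinases, *Cdc25a*, *Skp2* and *Myc*, RANKL raised 5 and lowered 1 in each genotype (7 and 2 in WT and 6 and 1 in Mir182ΔM/ΔM cells with the replicate block). *Myc*, a driver of proliferation, rose most (2.99 in WT and 2.40 in Mir182ΔM/ΔM cells), and *Ccnd2*, cyclin D2, fell (-2.04 and -2.31). Against WT, cyclin D1 (*Ccnd1*) was higher in Mir182ΔM/ΔM cells by 0.80 without and 1.63 with RANKL, and its interaction term passed (0.83), while *Ccnd2* was higher by 0.89 and 0.62. A list of 8 genes held inhibitors of these kinases and *Trp53*. None of the 8 passed between genotypes without RANKL by limma, where 1 had an unadjusted p under 0.05, and with the block 3 were higher and 1 lower. With RANKL 3 were higher in Mir182ΔM/ΔM cells, among them *Cdkn2a* (1.40) and *Cdkn1a* (0.81), and 2 lower, *Cdkn2b* (-1.15) and *Cdkn1b* (-0.91), and with the block 4 were higher and 2 lower. Of 17 genes of the E2F and retinoblastoma families and the DREAM complex, RANKL raised 6 and lowered 3 in WT cells and raised 6 and lowered 4 in Mir182ΔM/ΔM cells (7 and 3, and 10 and 4, with the block), with *Mybl2* at the top (1.55 and 1.26) and *Rb1*, the retinoblastoma gene, at the bottom (-0.70 and -0.90). Against WT, 2 of the 17 were higher in Mir182ΔM/ΔM cells without RANKL, *Mybl2* (0.49) and *E2f2* (0.42), and with RANKL 5 were higher, led by *Rbl1* (0.64), and *Tfdp2* was lower (-0.73). With the block 9 were higher and 3 lower without RANKL, and 11 higher and 4 lower with it. In Mir182mTg cells edgeR called none of these 3 lists, in which 2, 2 and 0 genes had an unadjusted p under 0.05. With the block it called *Ccnd2* higher and *Ccnd3*, *Skp2* and *Myc* lower in the first list, *Cdkn1a* and *Trp53* higher and *Cdkn2c* and *Cdkn2d* lower in the second, and none in the third. Of all genes tested in Mir182mTg cells, 6.94% were called higher and 8.15% lower with the block.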

How the data were processed

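RNA-seq of 12 BMM libraries in 6 conditions was used, with 24951280 to 33050619 reads on genes per library. According to the study's methods, the authors mapped reads on mm10 (TopHat or HISAT2) and obtained counts per gene with HTSeq; the labels name TopHat and Cufflinks for replicate 1 (poly-A RNA) and HISAT2, HTSeq and edgeR for replicate 2 (total RNA). The 8 loss-of-function libraries were deposited by the authors as CPM, scaled to the reads on the listed genes without TMM factors, and the 4 gain-of-function libraries as raw counts. The authors also deposited RPKM for replicate 1, in which each gene's CPM is scaled by 1 length. Spreadsheet software had turned 27 gene names into dates in the CPM files, and none was a member. All 195368 CPM values (100%) were whole reads within 0.01 read plus an allowance that grew with the read count, so the check is loose for the highest counts.

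CPM were tested with limma 3.58.1 (R 4.3.3) as log2(CPM + 1), keeping genes that reached 1 CPM in 2 or more of the 8 libraries, with 1 fit of 4 groups and a trended variance, so fold changes of low genes are understated. Counts were tested with edgeR 4.0.16 (quasi-likelihood, TMM, filterByExpr). P-values were adjusted over all genes tested by the Benjamini-Hochberg method, and an adjusted p below 0.05 was a call. On the recovered reads edgeR called 3536 genes higher and 3679 lower with RANKL in WT cells, 3439 and 3474 with RANKL in Mir182ΔM/ΔM cells, 273 and 135 in Mir182ΔM/ΔM against WT cells without RANKL, 2481 and 2448 with RANKL, and 1130 and 1110 for the interaction, of 12579 genes. DESeq2 1.42.0 was an alternative. The steps were tested on simulated data.

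Replicate numbers pair the libraries, because the labels give each number its own RNA type and pipeline, and the difference between replicates 2 and 1 correlated between every pair of conditions (r = 0.686 to 0.754 across 11794 genes, which are not independent replicates). The main fits have no replicate block, and blocked values are given where they change a call of the 35 genes, and as counts for the other lists.

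The 35 genes, the other gene lists and the tests were chosen with earlier results of these data known. Named genes are the 2 with the highest mean CPM of each role, all 3 of G1/S control, the ends of the range in each comparison, the ends of the called range of each other list, and the 5 other genes nearest to the median profile. Others are named where a count turned on them, after their values were seen. Sequences are from RefSeq (GRCm38.p6), and 3′ UTRs, the longest of each gene, from the GENCODE vM21 basic annotation.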

Additional observations from a re-analysis of the deposited data

Results flagged for a closer look

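The response to RANKL differed between WT and Mir182ΔM/ΔM cells for 3 of the 35 genes by a test of the difference itself (limma, Benjamini-Hochberg adjusted p below 0.05), a smaller share than the 17.1% of all genes tested that were called in this direction, so it does not set the 35 genes apart. The difference in log2 fold change was -0.47 for *Cdt1*, which loads the MCM ring, -0.43 for *Chaf1a*, the large subunit of the histone chaperone CAF-1, and -0.30 for *Mcm5*. All 3 genes rose with RANKL in both genotypes, and less in Mir182ΔM/ΔM cells. After division by TMM factors the differences were -0.31, -0.26 and -0.14 and none passed, and with the replicate block all 3 passed, both on CPM as deposited and with TMM scaling. The WT libraries with and without RANKL also stood apart in *Lyz2*, *Ifi202b* and *Ifi44l*, and genotype cannot be told apart from this in the term.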

How the results depend on the processing

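Of the counts of genes called, those with RANKL in WT cells ran from 28 to 30 higher and stayed at 1 lower when 1 library at a time was left out, and those in Mir182ΔM/ΔM cells from 25 to 28 higher. Against WT, Mir182ΔM/ΔM cells had 1 to 15 called higher without RANKL and 11 to 21 with RANKL, and the interaction 0 to 1 lower, the latter for any library. A condition left with 1 library was assumed to vary like the others. Where the cause of a change is not given by how the alternative was built, it was not tested.

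The replicate block, whose pairing rests on the RNA type in the labels, raised the calls without RANKL to 35 higher in Mir182ΔM/ΔM cells (also 35 with TMM scaling or edgeR), gave 1 lower with RANKL in Mir182ΔM/ΔM cells (also 1 with TMM scaling, with or without the block, and with edgeR and the block), 6 higher and 13 lower for the interaction, and 2 higher and 7 lower in Mir182mTg cells. The block with TMM scaling, chosen after seeing the data, and edgeR with the block each gave 3 lower with RANKL in WT cells and 33 higher in Mir182ΔM/ΔM against WT cells with RANKL, and 12 and 11 higher for the interaction, with 4 lower in each. The shares of all genes called in these 2 fits are not given here. The block alone turned no sign.

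Without the block, the interaction had 3 higher and 0 lower with TMM scaling (1 lower at an unadjusted p under 0.05), 3 and 0 with edgeR, 2 and 0 with DESeq2 and 1 and 1 with quantile normalization. Fitting only the libraries compared gave 0 in Mir182ΔM/ΔM against WT cells without RANKL. A fold change of at least 1.5 beside the adjusted p left 0 lower with RANKL in WT cells, 17 higher with RANKL in Mir182ΔM/ΔM cells, 4 and 6 higher in Mir182ΔM/ΔM against WT cells without and with RANKL, and 0 lower for the interaction.

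Among 61 values of single genes, the sign turned for 4. With RANKL in WT cells *E2f1* was at -0.18 with TMM scaling, -0.14 with quantile normalization, -0.19 with edgeR and -0.17 with DESeq2, and -0.030 to 0.073 without 1 library. *Gins2* was at -0.19, -0.22, -0.19 (-0.20 with the block) and -0.17, and -0.12 to 0.15 without 1 library. In Mir182ΔM/ΔM against WT cells with RANKL *Chaf1b* was at 0.079 (also with the block), 0.053, 0.090 (0.088 with the block) and 0.091, and -0.16 to 0.030 without 1 library, and *Rfc4* at 0.089, 0.12, 0.10 and 0.10, and -0.38 to 0.28 without 1 library. Of the alternatives of these values 862 kept direction and side of the threshold, 86 no longer passed and 35 newly passed.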

Other observations

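Control cells of the gain-of-function experiment and WT cells of the loss-of-function experiment, both without RANKL and both carrying LysMcre, held different levels of the 35 genes. The mean CPM was higher in Control cells for all 35, by a median of 2.14 times, from 1.34 times (*E2f1*) to 3.78 times (*Ccne2*). The 2 experiments were deposited separately, so this is a comparison of levels side by side with no test. The ratio over all genes is not given here, so these values do not set the 35 genes apart. The same groups were also far apart in *Lyz2* (5783 and 6615 against 44.0 and 39.8 CPM), *Ifi202b* (0 in both Control libraries against 112 and 93.4 CPM) and *Ifi44l* (0 in both against 19.8 and 25 CPM), although the labels give both as C57BL/6 with LysMcre. The part of this difference between libraries in the levels of the 35 genes was not tested.

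The 5 other genes whose log2 fold changes over the 6 comparisons were nearest to the median of the 35 genes, of 11396 compared, were *A630089N07Rik*, *Ercc6l*, *Cdc45*, *Psat1* and *9430015G10Rik*, at Euclidean distances of 0.124, 0.139, 0.142, 0.143 and 0.149. *Cdc45* is a part of the replicative helicase, *Ercc6l* a helicase of mitotic chromosomes and *Psat1* an enzyme of serine synthesis. The comparisons share libraries, so this is a description of likeness.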
